A study of Mus musculus with 9 samples.

Results

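The 10 genes described here are 3 metallothioneins (Mt1, Mt2 and Mt3), the zinc-sensing transcription factor gene Mtf1 and 6 zinc transporters (Slc30a1, Slc30a2, Slc30a4, Slc39a8, Slc39a10 and Slc39a14), taken by symbol from a table of 32594 genes. All 10 passed the low-count filter that left 15873 genes for testing. Stranded mRNA sequencing had been done on skeletal muscle of the hindlimb, in 5 wild type and 4 SMA samples of the FVB/N strain. SMA stands for the SMN delta 7 mouse, which models spinal muscular atrophy, a motor neuron disease that comes from a shortage of the SMN protein (survival motor neuron). Age, sex, litter and the alleles carried were not given in the labels, and nothing there says that each sample came from its own animal, so p-values refer to the spread among the samples as given, part of which may be technical. The set was assembled because Mt1 and Mt2 are much higher in SMA muscle. The values of the 10 genes in SMA against wild type are therefore a description, given without p-values.

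Metallothioneins are small cysteine-rich proteins that bind zinc and copper, and Mt1 and Mt2 are induced in most tissues by metals, glucocorticoids, inflammation and oxidative stress. The factor encoded by Mtf1 senses free zinc and binds metal response elements in their promoters. Transporters of the Slc30 family (ZnT) move zinc out of the cytosol, across the cell membrane or into vesicles, and those of the Slc39 family (ZIP) move it into the cytosol. Skeletal muscle holds a large part of the zinc of the body.

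Total counts ranged from 24917665 to 35087722 per library. Levels are given as CPM, counts divided by the library total after TMM scaling (a trimmed mean that balances libraries) and set to a common total. Smn1, the gene whose loss the SMA model carries, lay between 11.1 and 13.8 CPM in wild type and between 1.40 and 2.72 CPM in SMA, which matched the labels. The muscle markers Acta1, Ckm, Tnnt3, Ryr1, Mb, Myh4, Des and Ttn summed to 116263 to 162775 CPM in wild type and 63846 to 77147 CPM in SMA. Myh4, Acta1, Ckm and Tnnt3 had the highest wild type means in that sum. By the edgeR test given below 6 of the 8 were lower in SMA. Ryr1 and Des were not called, with log2 fold changes of -0.21 ± 0.13 and 0.045 ± 0.096 (SE). Y-linked genes were expressed in 4 of 5 wild type and 1 of 4 SMA libraries. The groups differed widely, with 54.9% of tested genes called at an adjusted p under 0.05 by edgeR's quasi-likelihood test, 27.7% higher and 27.2% lower in SMA.

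The upstream sequences of 4 members are shown because Mt1 and Mt2 move together in these libraries, while Slc30a1 is known as a target of the same zinc-sensing factor and Mt3 lies beside them without sharing their change. Each line gives the 250 bases before the RefSeq transcription start on GRCm38.p6, the build also called mm10, 5′ to 3′, and all 4 genes lie on the plus strand. Capitals mark the core of the metal response element, TGCACNC or TGCGCNC, searched on both strands, with overlapping matches counted as 1 site.
Mt1, chr8:94178839-94179088: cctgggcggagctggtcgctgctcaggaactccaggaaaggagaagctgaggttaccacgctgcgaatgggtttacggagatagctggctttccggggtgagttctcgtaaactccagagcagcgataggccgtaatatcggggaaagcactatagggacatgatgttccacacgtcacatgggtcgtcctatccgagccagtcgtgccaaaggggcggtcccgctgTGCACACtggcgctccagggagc
Mt2, chr8:94172368-94172617: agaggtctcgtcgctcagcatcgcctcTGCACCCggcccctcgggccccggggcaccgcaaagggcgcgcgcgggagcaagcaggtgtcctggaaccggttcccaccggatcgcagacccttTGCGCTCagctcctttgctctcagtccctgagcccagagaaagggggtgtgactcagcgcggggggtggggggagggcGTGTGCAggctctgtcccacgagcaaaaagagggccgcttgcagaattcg
Mt3, chr8:94152357-94152606: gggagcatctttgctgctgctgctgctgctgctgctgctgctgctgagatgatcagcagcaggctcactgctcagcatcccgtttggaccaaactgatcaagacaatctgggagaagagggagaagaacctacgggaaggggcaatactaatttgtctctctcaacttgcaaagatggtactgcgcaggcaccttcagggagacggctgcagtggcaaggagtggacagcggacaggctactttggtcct
Slc30a1, chr1:191906531-191906780: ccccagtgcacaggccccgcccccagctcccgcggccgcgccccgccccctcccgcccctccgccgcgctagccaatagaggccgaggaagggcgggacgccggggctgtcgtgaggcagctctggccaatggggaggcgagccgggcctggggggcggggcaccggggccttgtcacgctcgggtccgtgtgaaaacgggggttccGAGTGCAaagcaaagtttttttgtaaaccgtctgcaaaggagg

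The Mt2 window held 3 such sites, Mt1 and Slc30a1 held 1 each and Mt3 held 0. These counts depend on the RefSeq start used, as further Mt1 sites began at bases 3 and 21 after it. Sequence more than 50 bases after the start was not searched. Of 32851 RefSeq promoters, 21.4% held at least 1 site in the same 250 bases and 0.77% held at least 3. With the 50 bases after the start included, Mt2 had 4 sites, Mt1 had 3, Slc30a1 had 2 and Mt3 had 1, where 25.7%, 6.14%, 1.31% and 0.295% of promoters had at least 1, 2, 3 and 4. RefSeq promoters matched 9 of the 10 genes. In that longer window Slc30a4 had 3 sites, Slc30a2 had 2, 1 of the 2 starts of Slc39a8 had 1, and Mtf1 and both starts of Slc39a10 had 0. Mt2 also held 1 match to TGACNNNGC, the core of the antioxidant response element, at 79 bases before the start (TGACTCAGC), as did Slc30a1 (GCCTTGTCA, on the other strand) and 1 of the 2 starts of Slc39a8 (GCGGCGTCA, also on the other strand), and 10.2% of promoters held at least 1 in the 250 bases. A full glucocorticoid response element (the half-site AGAACA and its reverse complement TGTTCT, with any 3 bases between) was in none of these windows and in 3 of the 32851 promoters. At that rarity its absence here carries no information on glucocorticoid control, and sequence further upstream was not searched. Such matches describe letters in a short window and do not show binding.

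Mt1 and Mt2 were much higher in all 4 SMA libraries than in any wild type library. Mt1 was at 9.80, 9.23, 8.96, 9.51 and 11.2 CPM in wild type 1 to 5 and at 154.7, 200.0, 175 and 101 CPM in SMA 1 to 4. SMA 2 was the highest and SMA 4 the lowest of the SMA libraries, and the groups were far apart. Its mean was 9.75 ± 0.890 CPM over the 5 wild type libraries and 158 ± 42.0 CPM over the 4 SMA libraries (SD), which is 16.2-fold higher, and the fitted log2 fold change was 4.02 ± 0.17 (SE).

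Mt2 stood at 4.84, 4.23, 3.93, 7.48 and 4.47 CPM in wild type 1 to 5 and at 167, 177, 134 and 84.5 CPM in SMA 1 to 4. Wild type 4 was the highest wild type library by a wide gap, SMA 2 was again the highest and SMA 4 again the lowest of the SMA libraries. The mean was 4.99 ± 1.43 CPM in wild type and 141 ± 41.7 CPM in SMA (SD, n = 5 and 4), a 28.2-fold difference, and the fitted log2 fold change was 4.81 ± 0.24 (SE). By log2 fold change Mt2 was the 7th and Mt1 the 26th highest of 15873 genes. Over the alternative settings tried, the change of Mt1 stayed between 3.88 and 4.26 and that of Mt2 between 4.68 and 5.06.

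**Figure D1:**
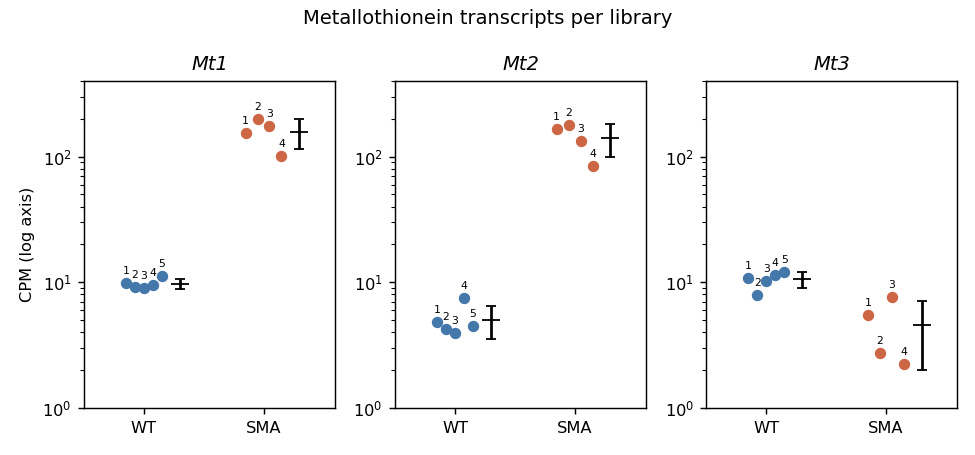
Level of Mt1, Mt2 and Mt3 in CPM, on a log axis, for each library (points, numbered by replicate) with the group mean and SD (black) in WT (n = 5) and SMA (n = 4). All SMA points lie above all WT points for Mt1 and Mt2 and below them for Mt3, where SMA 3 at 7.69 CPM is next to WT 2 at 7.97 CPM.

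Mt3, a metallothionein best known from brain, went the other way. Its level was 10.9, 7.97, 10.3, 11.5 and 12.0 CPM in wild type 1 to 5 and 5.47, 2.74, 7.69 and 2.22 CPM in SMA 1 to 4. In these scaled levels the groups did not overlap, but SMA 3 lay just under wild type 2, and SMA 2 and SMA 4 were far lower. Scaled to total counts they overlapped, as SMA 3 had 275 of 30746646 counts and wild type 2 had 247 of 30065776. The mean was 10.5 ± 1.57 CPM in wild type and 4.53 ± 2.54 CPM in SMA (SD, n = 5 and 4), 2.33-fold lower, with a log2 fold change of -1.22 ± 0.30 (SE). Under scaling to total counts that change was -0.96 and was still called. Mt4, the remaining gene of the cluster and known from stratified epithelia, was too low to be tested, with 2, 0, 1, 45 and 1 counts in wild type 1 to 5 and 0, 1, 3 and 19 counts in SMA 1 to 4.

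Per length of the longest principal transcript, the 3 metallothioneins changed order between the groups. In wild type Mt3 had 19.7 ± 2.93, Mt1 17.8 ± 1.62 and Mt2 9.76 ± 2.80 CPM per kb (SD, n = 5), and the libraries of Mt3 and Mt1 overlapped in that group. In SMA Mt1 had 287 ± 76.5, Mt2 275 ± 81.7 and Mt3 8.45 ± 4.74 CPM per kb (SD, n = 4), so that Mt1 and Mt2 did not differ beyond their spread. The share of Mt3 in the summed per-length level of the 3 genes was 41.6% ± 2.93 in wild type and 1.49% ± 0.725 in SMA (SD, n = 5 and 4). The 3 genes together, as counts without length, took 25.3 ± 2.98 CPM in wild type and 303 ± 81.5 CPM in SMA.

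Mt1 made up less of the Mt1 plus Mt2 counts in SMA on average. Mt1 took 67.0%, 68.6%, 69.5%, 56.0% and 71.6% of the Mt1 plus Mt2 counts in wild type 1 to 5 and 48.1%, 53.0%, 56.7% and 54.5% in SMA 1 to 4. SMA 3, the highest SMA library, lay above wild type 4, the lowest wild type library, so the groups overlapped by 1 library each. The share averaged 66.5% ± 6.13 over the 5 wild type libraries and 53.1% ± 3.63 over the 4 SMA libraries (SD). Exact 95% binomial intervals, which cover counting error only, ran from 51.4% to 60.4% in wild type 4 and from 55.8% to 57.6% in SMA 3. Without wild type 4 the difference in means was -16.1 percentage points, against -13.4 with all libraries.

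**Figure D2:**
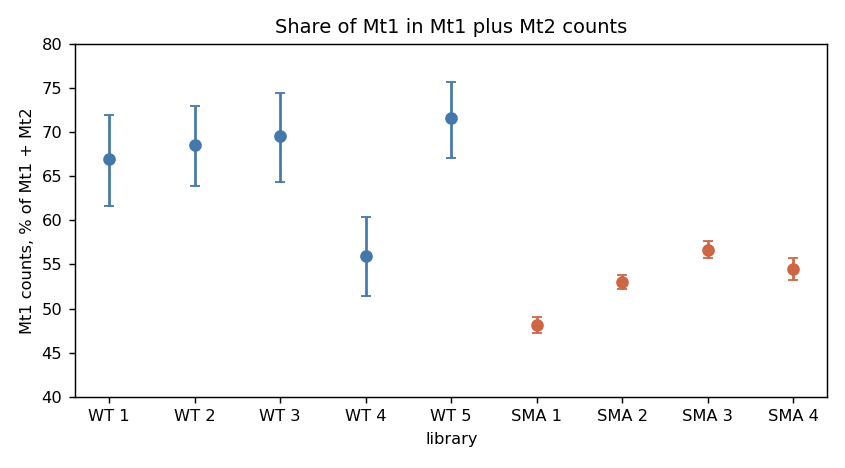
Mt1 counts as a percent of Mt1 plus Mt2 counts in each library (WT blue, SMA orange), with exact 95% binomial intervals as bars and an axis that runs from 40 to 80%. Only WT 4, at 56.0%, lies among the SMA libraries, which span 48.1% to 56.7%.

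Mt1 and Mt2 are close paralogs, so the sharing of reads between them was checked on the transcripts. Their principal transcripts were 62.7% identical when aligned, Mt1 and Mt3 56.9%, and Mt2 and Mt3 56.0%. Of the 475 stretches of 75 bases (the read length) in the Mt1 transcript, 437 in that of Mt2 and 462 in that of Mt3, 0 occurred without mismatch in a transcript of any other gene.

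The 4 metallothionein genes lie on chromosome 8, with their starts within 41.9 kb, in the order Mt4, Mt3, Mt2 and Mt1, all on the plus strand (GENCODE M21, mm10). Mt1 spans 94179082 to 94180327, Mt2 spans 94172664 to 94173568 with its start 6.42 kb before that of Mt1, and Mt3 spans 94152607 to 94154146 with its start 26.5 kb before. Of 6 other tested genes reported here within 300 kb of the Mt1 start, 1 rose, 1 fell and 4 were not called. Among all tested genes 27.7% rose and 27.2% fell. The 6 were chosen by position after the data were seen, and none changed by a size similar to Mt1 or Mt2. Under scaling to total counts 3 rose, as Herpud1 (0.44) and Nudt21 (0.39) joined Bbs2, and Ogfod1 was no longer called, at -0.17. Bbs2, a ciliary transport gene, rose by 0.73 ± 0.091 on the log2 scale (adjusted p = 3.87e-05, edgeR). Ogfod1, a ribosomal prolyl hydroxylase gene, fell by 0.42 ± 0.10 (adjusted p = 0.00481, edgeR). The nearest tested gene after Mt1, the nuclear pore gene Nup93, had a log2 fold change of -0.12 ± 0.12 (adjusted p = 0.44, edgeR), which turned to 0.11 under scaling to total counts.

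**Figure D3:**
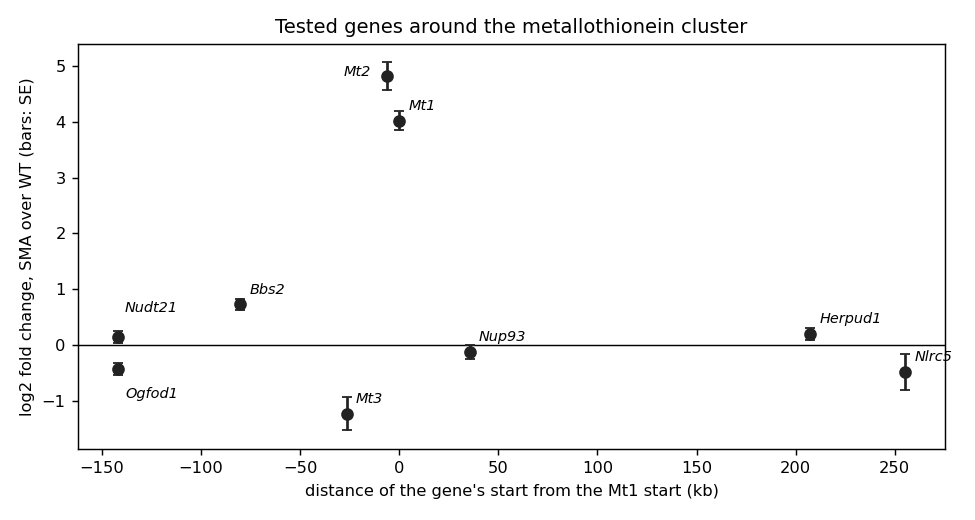
Fitted log2 fold change of SMA over WT (bars, SE) for the tested genes reported here within 300 kb of the Mt1 start, against the distance in kb of each gene's start from that of Mt1. Mt1 (4.02) and Mt2 (4.81) stand far above the other genes, and Mt3 (-1.22) lies lowest.

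Mtf1, the gene of the zinc-sensing factor (chromosome 4, 124802104 to 124849800, plus strand), was at like levels in both groups. It had 17.4, 13.3, 17.5, 12.8 and 20.2 CPM in wild type 1 to 5 and 17.8, 18.5, 13.8 and 17.5 CPM in SMA 1 to 4, with every SMA library inside the wild type range. The log2 fold change was 0.061 ± 0.14 (SE), and under scaling to total counts it was 0.30 and was called. Transcript level says nothing of how much of the factor was bound to zinc.

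Of the 3 exporters of the set, only Slc30a1 was called by edgeR after TMM scaling. Slc30a1, which sends zinc out across the cell membrane and is a known target of the zinc-sensing factor (chromosome 1, 191906767 to 191913247, plus strand), was lower on average in SMA. Its level was 12.8, 15.9, 15.1, 18.9 and 15.1 CPM in wild type 1 to 5 and 9.13, 10.3, 14.4 and 10.6 CPM in SMA 1 to 4. SMA 3 lay above wild type 1, so the groups overlapped, and the log2 fold change was -0.48 ± 0.14 (SE). Scaled to total counts it was -0.25 and was not called, so the change of Slc30a1 was opposite in sign to that of Mt1 and Mt2 under either scaling, but its call depended on the scaling.

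Slc30a4, which loads zinc into vesicles (chromosome 2, 122681233 to 122702663, minus strand), had 33.6, 31.5, 33.6, 32.0 and 32.4 CPM in wild type 1 to 5 and 34.2, 30.0, 26.1 and 36.8 CPM in SMA 1 to 4. The wild type libraries were tightly grouped inside the wider SMA range, and the log2 fold change was -0.037 ± 0.095 (SE), or 0.19 under scaling to total counts. Slc30a2, a vesicular exporter known for zinc supply to milk (chromosome 4, 134343181 to 134354484, plus strand), ranged from 2.21 to 3.12 CPM in wild type and from 2.36 to 4.37 CPM in SMA. Its groups overlapped, with a log2 fold change of 0.30 ± 0.19 (SE), and it was called under scaling to total counts, at 0.53, and with sex as a covariate, at 0.54.

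Among the 3 importers of the set, Slc39a10 was lower and Slc39a14 slightly higher in SMA. Slc39a10, a cell membrane importer whose transcription is known to be held down by zinc (chromosome 1, 46807544 to 46892852, minus strand), had 13.0, 14.6, 14.6, 15.8 and 12.3 CPM in wild type 1 to 5 and 10.5, 11.5, 10.4 and 9.32 CPM in SMA 1 to 4. In these scaled levels the groups did not overlap, although wild type 5 and SMA 2 were close, and the log2 fold change was -0.43 ± 0.099 (SE). Under scaling to total counts it was -0.20 and was not called. The groups then overlapped, as wild type 5 had 347 of 34094645 counts and SMA 1 had 368 of 33035889.

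Slc39a14, an importer of zinc, iron and manganese (chromosome 14, 70303469 to 70351425, minus strand), had 13.0, 15.7, 13.2, 13.9 and 12.4 CPM in wild type 1 to 5 and 17.4, 17.9, 15.5 and 15.9 CPM in SMA 1 to 4. Wild type 2 lay above SMA 3, so the groups overlapped by 1 library each, and the log2 fold change was 0.29 ± 0.090 (SE). It was not called without SMA 2, where it was 0.25, and was 0.51 under scaling to total counts. Slc39a8, a relative that also carries manganese and cadmium (chromosome 3, 135825279 to 135888572, plus strand), was barely detected, at 0.660 to 1.35 CPM in wild type and 0.630 to 0.959 CPM in SMA. With 15 to 38 counts per library, its log2 fold change of -0.28 ± 0.25 (SE) was about the size of its SE.

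**Figure D4:**
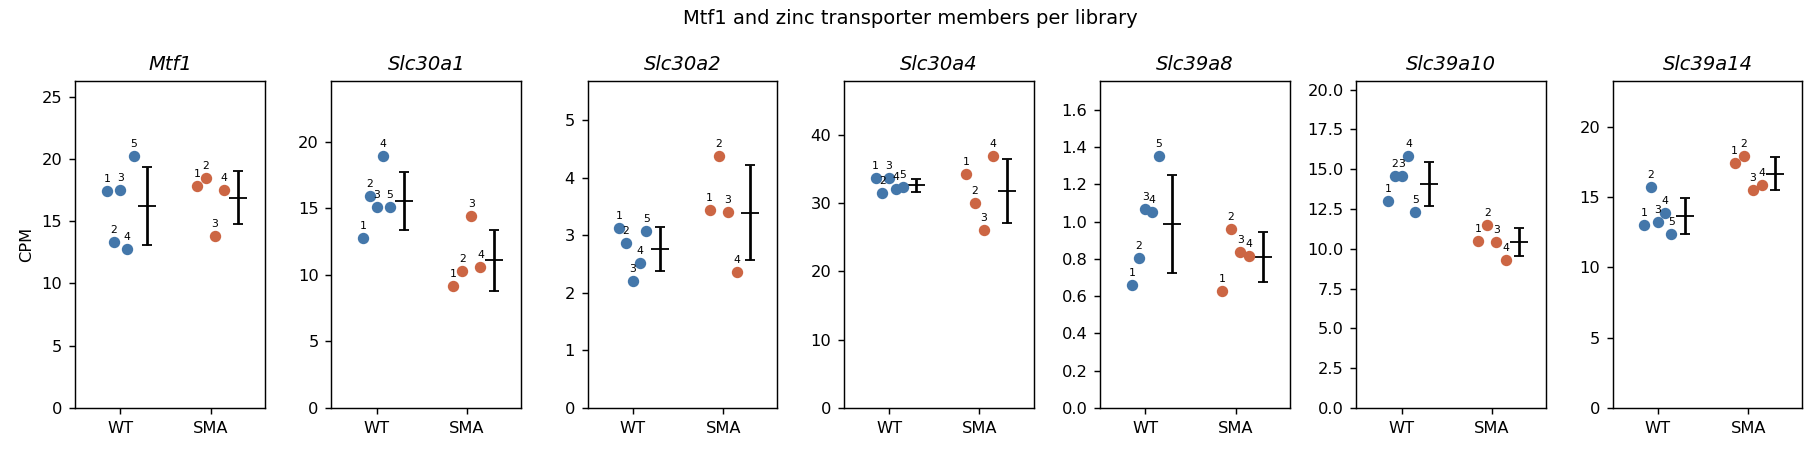
Level of Mtf1 and the 6 zinc transporters of the set in CPM for each library (points, numbered by replicate) with the group mean and SD (black), on axes that start at 0, in WT (n = 5) and SMA (n = 4). In CPM after TMM scaling the groups are apart only for Slc39a10, with SMA from 9.32 to 11.5 CPM and WT from 12.3 to 15.8 CPM. Scaled to total counts they overlap for that gene too.

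Of the 10 genes, 3 were called higher (Mt1, Mt2 and Slc39a14), 3 were called lower (Mt3, Slc30a1 and Slc39a10) and 4 were not called by the fit over all genes, beside a background of 54.9% of genes called. In CPM after TMM scaling the groups did not overlap for 4 of the 10, beside 44.2% of all tested genes. SMA lay wholly above wild type for Mt1 and Mt2, beside 22.6% of tested genes, and wholly below for Mt3 and Slc39a10, beside 21.7%. Scaled to total counts, the groups overlapped for Mt3 and for Slc39a10. The median log2 fold change of the 10 was 0.012, and that of all tested genes was 0.0060. Scaling to total counts shifted the median of all tested genes by 0.23, and then 5 were called higher (Mt1, Mt2, Mtf1, Slc30a2 and Slc39a14) and 1 lower (Mt3). Mt2 and Mt1 had the largest fold changes of the 10, and Mt3 the next at 2.33-fold lower. Per length, the transporters in wild type ran from Slc30a4 at 5.97 ± 0.177 through Slc30a1 at 2.96 ± 0.420, Slc39a14 at 2.77 ± 0.260 and Slc39a10 at 2.55 ± 0.253, to Slc30a2 at 0.876 ± 0.124 and Slc39a8 at 0.279 ± 0.0748 CPM per kb (SD, n = 5). The means of Slc30a1, Slc39a14 and Slc39a10 were close beside their spread, although Slc30a1 lay above Slc39a10 within each wild type library.

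Of 14 tested zinc transporters outside the 10, 1 rose and 6 fell, or 3 rose and 5 fell when scaled to total counts. Among all tested genes 27.7% rose and 27.2% fell, or 6385 and 2164 of 15873 when scaled to total counts. Of 7 other Slc30 genes, 4 were tested, of which 1 rose and 2 fell. Slc30a5, which loads zinc into the early secretory pathway, rose by 0.50 ± 0.072 on the log2 scale, from 25.03 ± 1.002 to 35.3 ± 2.62 CPM (SD, n = 5 and 4), with an adjusted p of 1.25e-04 by edgeR. Slc30a9, which exports zinc from mitochondria, fell by 0.59 ± 0.10 (adjusted p = 4.39e-04, edgeR) and the Golgi transporter gene Slc30a7 by 0.43 ± 0.080 (adjusted p = 7.71e-04, edgeR). Scaled to total counts, Slc30a7 was no longer called, at -0.20 with an adjusted p of 0.14 by edgeR. Slc30a8 had 0 counts in every library, which allows up to 3 counts per library, or 0.12 CPM in the shallowest, scaled to total counts.

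Of 11 other Slc39 genes, 10 were tested, of which 0 rose and 4 fell by edgeR, among an all-gene background of 27.2% that fell. At an unadjusted p under 0.05 edgeR also gave 0 higher, and DESeq2 called 0 higher, whereas under scaling to total counts 2 rose, Slc39a7 and Slc39a9, and 4 fell. The cell membrane importer genes Slc39a1, Slc39a3 and the Golgi-associated Slc39a11 fell by 0.47 ± 0.071, 0.67 ± 0.11 and 1.04 ± 0.14 on the log2 scale (edgeR, adjusted p = 1.51e-04, 3.49e-04 and 8.51e-05 in that order). Slc39a1 lay between 55.7 and 63.4 CPM in wild type and between 39.0 and 44.0 CPM in SMA, without overlap in these scaled levels. Scaled to total counts its groups overlapped narrowly, as wild type 5 had 1578 of 34094645 counts and SMA 1 had 1536 of 33035889. Slc39a12, best known from brain and singled out after its values were seen, fell by 2.04 ± 0.50 (adjusted p = 0.00445, edgeR). It had 25, 35, 33, 36 and 37 counts in wild type 1 to 5 and 3, 4, 28 and 7 counts in SMA 1 to 4, so that SMA 3 lay near wild type, as it did for Mt3. Across all 20 tested zinc transporters, the 6 members included, 2 rose, 8 fell and 10 were not called, with a median log2 fold change of -0.22. Under scaling to total counts 5 rose and 5 fell, with a median of 0.010, where the median of all tested genes was 0.24.

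**Figure D5:**
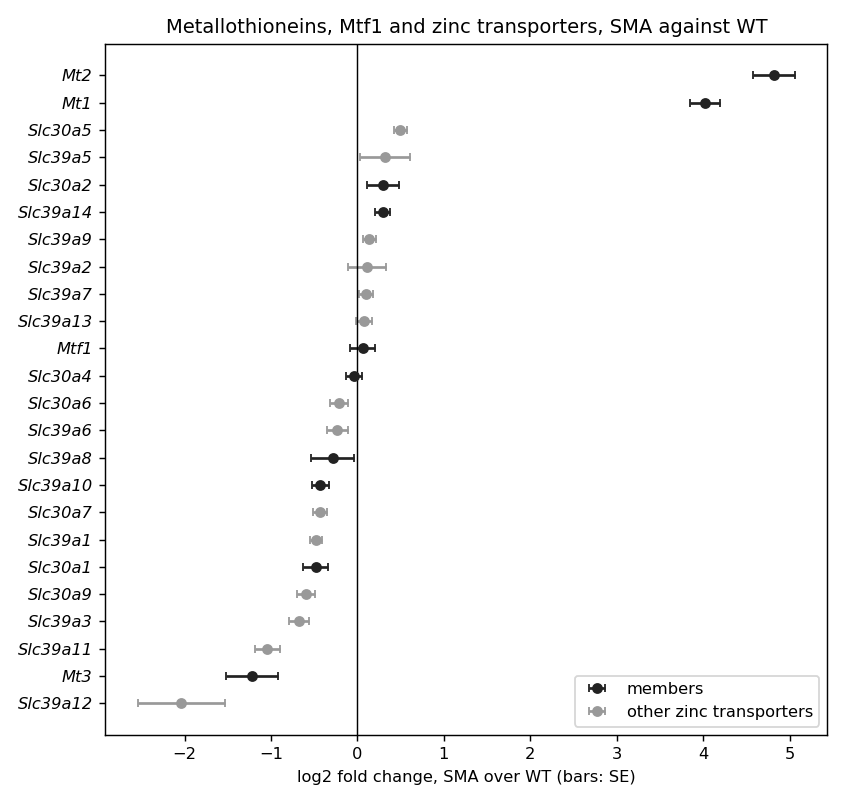
Fitted log2 fold change of SMA over WT (points; bars, SE; n = 4 and 5) for the 10 members (black) and the other tested zinc transporters (grey), ordered by size. Mt2 at 4.81 and Mt1 at 4.02 are separated from the rest, whose values run from -2.04 for Slc39a12 to 0.50 for Slc30a5.

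Other genes reported elsewhere to be targets of the zinc-sensing factor were read beside Mt1 and Mt2. Of 7 tested, 2 rose, 2 fell and 3 were not called, with a median log2 fold change of 0.11. Among all tested genes 27.7% rose and 27.2% fell. Under scaling to total counts 4 of the 7 rose and 1 fell, beside 6385 and 2164 of 15873 tested genes. Ndrg1, a stress-induced gene, rose by 1.15 ± 0.13, from 33.2 ± 4.20 to 73.8 ± 13.3 CPM (SD, n = 5 and 4; adjusted p = 1.62e-05, edgeR). The mitochondrial thioredoxin reductase gene Txnrd2 fell by 1.19 ± 0.17 (adjusted p = 1.08e-04, edgeR). Selenow, which also fell and was looked up after values were seen, was at -0.27 ± 0.10 (adjusted p = 0.0450, edgeR). It lost its call in 7 fits with 1 library left out, with sex as a covariate, with the replicate block and under scaling to total counts. The iron exporter gene Slc40a1 rose by 0.32 ± 0.11 (adjusted p = 0.0299, edgeR), but was not called with any of wild type 1, 4 or 5 or SMA 2 or 3 left out, where its log2 fold change lay between 0.22 and 0.31.

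Copper is the other metal that metallothioneins bind. Of 11 tested genes of copper handling, 2 rose, 6 fell and 3 were not called, beside 27.7% of all tested genes that rose and 27.2% that fell. Under scaling to total counts 4 rose and 0 fell, beside 6385 and 2164 of 15873 tested genes. The median log2 fold change was -0.18, or 0.057 under that scaling, where that of all tested genes was 0.0060 and 0.24. The median of the copper genes thus lay below that of all tested genes under either scaling. Commd1, a regulator of copper export, fell by 0.49 ± 0.081 (adjusted p = 3.30e-04) and the copper chaperone gene Atox1 by 0.46 ± 0.090 (adjusted p = 0.00109), while the copper-carrying plasma protein gene Cp rose by 0.57 ± 0.11 (adjusted p = 0.00117, all by edgeR). Only 3 fell with wild type 1, wild type 5, SMA 1 or SMA 4 left out.

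Mt1 and Mt2 are known to be induced by glucocorticoids, by interleukin 6 through STAT3 and by oxidative stress, and genes of these responses were read beside them. Of 12 glucocorticoid response genes, 7 rose, 2 fell and 3 were not called, with a median log2 fold change of 1.13. Of all tested genes 27.7% rose and 27.2% fell. Under scaling to total counts 10 of the 12 rose and 1 fell, beside 6385 and 2164 of 15873 tested genes. The medians were then 1.36 for the 12 and 0.24 for all tested genes. Sgk1, which fell and was looked up after values were seen, lost its call in 7 fits with 1 library left out and by DESeq2. Fkbp5, a chaperone of steroid receptors, was at 8.44 ± 1.12 CPM in wild type (SD, n = 5) and at 102, 88.4, 79.3 and 58.7 CPM in SMA 1 to 4, with SMA 4 lowest as for Mt1 and Mt2. It rose by 3.28 ± 0.15 on the log2 scale (adjusted p = 5.51e-08, edgeR). The transcription factor genes Klf15 and Zbtb16 rose by 2.09 ± 0.21 and 2.33 ± 0.30 (adjusted p = 7.35e-06 and 4.76e-05, edgeR). For Zbtb16, SMA 4 was the highest library at 159 CPM and SMA 3 the lowest at 74.6 CPM, unlike Mt1. The receptor gene Nr3c1 fell by 0.62 ± 0.11 (adjusted p = 6.41e-04, edgeR), and Tsc22d3, a widely used induced gene, had a log2 fold change of 0.21 ± 0.18 (adjusted p = 0.341, edgeR), both looked up after values were seen.

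Of 11 tested genes of the interleukin 6 and STAT3 response, 4 rose, 2 fell and 5 were not called, and 8 rose under scaling to total counts. The receptor gene Il6ra rose by 3.01 ± 0.30 (adjusted p = 8.09e-06), the serum protease inhibitor gene Serpina3n by 1.95 ± 0.20 (adjusted p = 9.00e-06) and the kinase gene Pim1 by 1.29 ± 0.21 (adjusted p = 3.30e-04, all by edgeR). Il6 itself was too low to be tested. Of 10 genes of the NRF2 oxidative response, 3 rose, 2 fell and 5 were not called, with a median of 0.033. Under scaling to total counts 5 rose and 0 fell. Among all tested genes 27.7% rose and 27.2% fell after TMM scaling, close to the shares of the NRF2 list. The glutathione synthesis gene Gclm rose by 0.60 ± 0.11 (adjusted p = 5.03e-04), the quinone reductase gene Nqo1 by 1.20 ± 0.22 (adjusted p = 7.91e-04) and the haem oxygenase gene Hmox1 by 0.59 ± 0.11 (adjusted p = 8.26e-04, all by edgeR). Whether any of these responses acted on Mt1 or Mt2 was not tested.

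The genes with the profiles most like those of Mt1 and Mt2 over the 9 libraries were then listed. Likeness was the root-mean-square difference of log2 CPM, each gene centred on its wild type mean, among 10696 tested genes with a mean of at least 5 CPM. Nearest to Mt1 were the proline dehydrogenase gene Prodh at 0.32, the uncharacterised 6330403A02Rik at 0.35, the acyl-CoA thioesterase gene Acot1 at 0.36 and the cell cycle inhibitor gene Cdkn1a at 0.41. Nearest to Mt2 were Tmem82 at 0.46, the cadherin-related gene Cdhr3 at 0.49, AI507597, whose reads may be shared with Tmem82, at 0.50 and the hypoxia-inducible factor gene Hif3a at 0.52. Mt1 was the 6th nearest to Mt2 and Mt2 the 12th nearest to Mt1, at a difference of 0.61. Centred on wild type, the measure mostly matches the size of the SMA change, for which Mt1 and Mt2 were picked. The listed genes had log2 fold changes of 3.75 to 4.80. Order within SMA could differ, as Cdkn1a was at 849, 663, 454 and 721 CPM in SMA 1 to 4, unlike Mt1. These distances are a description and carry no test.

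Bulk RNA cannot tell fewer cells of a type from less RNA per cell, and markers of several cell types moved with the groups. The 4 Schwann cell markers reported here summed to 180 to 412 CPM in wild type and 458 to 987 CPM in SMA. Of these, 3 rose, with Sox10 at 1.32 ± 0.18, Pmp22 at 1.29 ± 0.22 and Mbp at 1.66 ± 0.30 on the log2 scale, and S100b was at 0.015 ± 0.23. Macrophage markers (6 measured) summed to 101 to 131 and 61.8 to 78.0 CPM, and 4 fell, among them Mrc1 at -1.72 ± 0.10. Fibroblast markers (6 measured) summed to 3091 to 5506 and 1816 to 2691 CPM, with 5 that fell, among them Lum at -1.41 ± 0.12, and 1 that rose. Under scaling to total counts 3 macrophage and 3 fibroblast markers fell. Among all tested genes 27.7% rose and 27.2% fell, or 6385 and 2164 of 15873 under that scaling. Sums of endothelial markers (6 measured) overlapped, at 576 to 712 and 562 to 661 CPM. Adipocyte markers (6 measured) moved apart, with 1 that rose, 2 that fell and a median log2 fold change of -0.87. Their sum, at 299.8 to 624 and 529 to 662 CPM, was mostly Fabp4, which rose by 0.56 ± 0.17. Lep fell, from 0.315 to 4.82 CPM in wild type to 0 to 0.0533 CPM in SMA, and Plin1 was at -1.68 ± 0.66 with an adjusted p of 0.0478 by edgeR, and was not called without wild type 2, wild type 5, SMA 1, SMA 2 or SMA 3 or under scaling to total counts. Brown fat markers (3 measured) summed to 21.0 to 153 CPM in wild type and 14.1 to 20.1 CPM in SMA, and they too moved apart. Ucp1 fell by 5.59 ± 0.81, Elovl3 rose by 1.47 ± 0.23, and Cidea was at -0.23 ± 0.36 and changed sign under other settings. In each of these lists 0 markers were at 0 in all libraries. Their part in the change of Mt1, Mt2 and Mt3 was not tested.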

How the data were processed

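RNA was measured in 9 libraries of hindlimb muscle, 5 wild type and 4 SMA. Per the labels' protocols, stranded poly(A) libraries were made from 200 ng of total RNA (integrity number over 7) and sequenced as paired reads of 75 bases. The authors deposited whole-number counts per gene, not normalized. HTSeq 0.9.1, DESeq2 1.16.1 and mm10 stand in the submitters' processing notes without a role; the sources used here give no aligner, annotation or strand setting.

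Groups came from the labels. Counts were fitted in R 4.3.3 with edgeR 4.0.16 (filterByExpr, TMM, quasi-likelihood test, group as the 1 term) on all 9 libraries together, and p-values of the 15873 genes were adjusted by Benjamini-Hochberg, with a threshold of 0.05. The procedure was tested on simulated counts. Standard errors are the log2 fold change divided by the root of F. Log2 CPM used a prior count of 2. No pair of replicates agreed within sampling noise (chi-square per degree of freedom 11.2 to 81.3). Per-length levels used the longest principal transcript of GENCODE M21, promoters came from RefSeq. Of the other listed genes, 111 matched by symbol and 1, Selenow, by an older name.

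Some listed or neighbouring genes are not reported here. The members and lists were chosen with earlier results of these data known. Named genes are all members, the 3 with the lowest adjusted p of each other list (marker lists are mostly given as sums), and the 4 profiles most like Mt1 and Mt2. Alternatives were DESeq2 1.42.0 and its size factors, total counts, 2 other filters (none, or 50 counts in 4 libraries), sex inferred from Xist and Y-linked genes as a covariate, a replicate block and libraries left out. Depth was 24917665 to 35087722 counts per library.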

Additional observations from a re-analysis of the deposited data

Results flagged for a closer look

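In 106 groups of 4 or 5 libraries, 1 library stood apart from the rest by Dixon's criterion in 9 cases, where chance gives about 1 in 20 groups. Among the metallothioneins and transporters these were Mt2 in wild type 4 (7.48 CPM), Slc30a7 in SMA 4 (14.9 CPM) and Slc39a3 in wild type 5 (28.7 CPM). Among cell type markers, wild type 5 stood apart for the muscle gene Mb (626 CPM), the adipocyte gene Lep (4.82 CPM), the brown fat gene Ucp1 (119 CPM) and the Schwann cell gene Sox10 (4.11 CPM). Elovl3, a brown fat marker, was at 1.85 CPM in wild type 4, and the endothelial gene Cdh5 at 168 CPM in wild type 1. Without wild type 5 and SMA 3 together, Mt1 had a log2 fold change of 4.02 and Mt2 of 4.80.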

How the results depend on the processing

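Over 18 alternatives, Mt1, Mt2 and Mt3 kept their direction and their calls. Scaling to total counts, which moved the median of all genes by 0.23, changed most: 2164 genes were lower and 6385 higher, against 4319 and 4393. The 10 genes then had 5 called higher and 1 lower, and the other pathway lists 34 higher and 9 lower, against 19 and 20. With sex as a covariate the pathway lists had 13 lower. Slc31a1 and Ccs, called lower, turned to 0.057 each under total counts and were not called. Of uncalled genes, Mtf1 ranged from -0.015 to 0.30 and Slc30a4 from -0.12 to 0.19. Cidea (-0.23) was at 0.050 under total counts, 0.32 with the replicate block, 0.28 in replicates 1 to 4 unblocked, -0.39 to 0.28 with 1 library left out (0.28 without wild type 5) and 0.21 without wild type 5 and SMA 3. Nup93 (-0.12) was at 0.11 under total counts. The cause was not tested. Libraries with the same replicate number showed little shared deviation (correlations 0.118, -0.00555, -0.0482 and 0.0971), and no SMA library correlated best with its own number. Such correlations cannot show whether the numbers pair libraries, and the labels do not say. With the replicate block 3973 genes were higher and 3899 lower, against 4338 and 4243 in the same 8 libraries unblocked, an alternative chosen after seeing the data. The block gave 3 higher and 3 lower of the 10 genes. Slc39a8, at 15 to 38 counts, was removed by the stricter filter.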

Other observations

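Some genes outside the comparisons were high in 1 or 2 libraries, all singled out after their values were seen. Mt4 had 45 counts in wild type 4 and 19 in SMA 4, and at most 3 in any other library. The keratinocyte gene Krt5 was at 9.996 CPM in wild type 4, at 1.74 CPM in SMA 4 and 1.36 CPM in SMA 2, and at 0 to 0.648 CPM in the other wild type libraries. Summed over Krt1, Krt5, Krt10, Krt14, Krtdap and Lor, wild type 4 had 20.4 CPM, where the other wild type libraries had 5.35 to 7.97 CPM and SMA libraries 5.87 to 8.87 CPM. Wild type 4 is also the library with the highest wild type level of Mt2, and the part of such cells in that level was not tested. Slc30a10, a manganese exporter, had 40 counts in SMA 3 and 0 to 8 in the other libraries.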
